A study of Mus musculus with 28 samples.

Results

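The genes described here are 8 receptors and channels through which hormones, neuromodulators and osmotic signals reach the epithelium of the choroid plexus: Htr2c, Prlr, Ghr, Lepr, Insr, Igf1r, Esr1 and Trpv4. They were taken by symbol, matched to their mouse Entrez identifiers, and all 8 were found among the 27179 genes of the count tables. The choroid plexus of the lateral ventricles was taken from 28 males, in 7 groups of 4, and its polyadenylated RNA was sequenced. Young mice (C57/BL6, wild-type, 3 to 4 months old) were sampled at zeitgeber time (ZT) 6, in the middle of the light phase (young day), in the middle of the dark phase at ZT 18 (young night), or, following sleep disruption for 6 h, again at ZT 6. The labels call these groups sleep, awake and sleep disrupted, in that order. Aged mice of 12 to 14 months were J20+ or their wild-type littermates, labelled J20-, each sampled at ZT 6 or ZT 18 with no sleep disruption. J20+ animals express human APP, the amyloid precursor protein, carrying familial Alzheimer mutations; in this line the transgene is known to be driven mainly in neurons by a platelet-derived growth factor promoter, which the labels do not state. The young libraries were batch 1 and the aged libraries batch 2, so age and batch cannot be told apart. Each library is labelled as its own mouse. On GRCm38 the members lie, by RefSeq, at chrX:146962464-147197277 (Htr2c), chr15:10177238-10349190 (Prlr), chr15:3317755-3583352 (Ghr), chr4:101717137-101815352 (Lepr), chr8:3150922-3279649 (Insr), chr7:67952257-68233668 (Igf1r), chr10:4611989-5005633 (Esr1) and chr5:114622152-114658435 (Trpv4).

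The choroid plexus epithelium secretes cerebrospinal fluid and separates it from blood. Htr2c encodes the serotonin 2C receptor, which couples to Gq and calcium release and is a classic marker of this epithelium. Prlr, Ghr and Lepr encode the prolactin, growth hormone and leptin receptors, cytokine-type receptors that signal through JAK2 and STAT proteins, and the choroidal prolactin and leptin receptors are also known for binding and carrying their hormones at the blood-fluid barrier. Insr and Igf1r encode the tyrosine kinase receptors of insulin and insulin-like growth factor 1. Esr1 encodes estrogen receptor alpha, a ligand-activated transcription factor. Trpv4 encodes a calcium-permeable cation channel opened by cell swelling and warmth, found on the apical face of the epithelium and studied for its part in fluid secretion.

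The stretches before the annotated start of 4 members are shown because these genes carry the extremes of the results: Htr2c and Prlr had the highest levels per length in young mice, and Trpv4 and Igf1r were the tested members with a higher mean in aged wild-type day than in young day mice. They are taken from RefSeq on GRCm38.p6, written 5′ to 3′ on the gene's strand, from the bases before the first listed start that lie outside the gene. Capitals mark a match to AGGTCA or its reverse complement, the half-site of ROR and REV-ERB receptors.
Htr2c, chrX:146962263-146962463, plus strand: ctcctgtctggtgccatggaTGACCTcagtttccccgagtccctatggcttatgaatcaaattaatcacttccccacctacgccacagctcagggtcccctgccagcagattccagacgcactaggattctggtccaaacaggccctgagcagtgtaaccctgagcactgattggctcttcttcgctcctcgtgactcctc
Prlr, chr15:10176988-10177237, plus strand: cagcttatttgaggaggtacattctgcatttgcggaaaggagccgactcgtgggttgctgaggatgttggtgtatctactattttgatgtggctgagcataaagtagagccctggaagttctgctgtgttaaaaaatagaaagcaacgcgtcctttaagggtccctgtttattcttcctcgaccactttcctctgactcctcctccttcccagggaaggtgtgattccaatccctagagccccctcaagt
Igf1r, chr7:67952007-67952256, plus strand: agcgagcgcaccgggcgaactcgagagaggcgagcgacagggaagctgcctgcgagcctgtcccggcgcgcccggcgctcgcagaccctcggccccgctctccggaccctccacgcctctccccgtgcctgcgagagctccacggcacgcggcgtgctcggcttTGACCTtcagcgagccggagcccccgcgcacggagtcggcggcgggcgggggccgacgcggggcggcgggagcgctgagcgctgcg
Trpv4, chr5:114658436-114658671, minus strand: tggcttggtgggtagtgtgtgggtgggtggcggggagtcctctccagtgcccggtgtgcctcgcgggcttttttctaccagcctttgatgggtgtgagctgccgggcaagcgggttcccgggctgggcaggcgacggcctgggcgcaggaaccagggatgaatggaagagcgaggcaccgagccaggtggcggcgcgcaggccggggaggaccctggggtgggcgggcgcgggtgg

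Starts were listed for 7 members, 12 starts in all; Insr had none in the table. The 250 bases before each start were searched on both strands for the E-box CACGTG, the D-box TTATGTAA or TTACGTAA, the half-site AGGTCA, the OTX2 core TAATCC and the STAT5 site TTCNNNGAA. The half-site occurred once before the start of Htr2c and once before that of Igf1r, and 14.0% of the 32851 windows of all genes held it. A STAT5 site preceded the second listed start of Prlr and the second of Esr1 (7.02% of all windows), and a D-box preceded the third start of Prlr (0.819%). No E-box or OTX2 core was found in these windows, and no window held matches that overlapped. The window of Prlr held 48.0% G and C and that of Trpv4 72.0%, against a median of 52.4% for all windows. The transcripts lie apart in the same order: the longest Prlr transcript has 39.4% GC and that of Trpv4 59.0%, at percentiles 10.97 and 95.5 of genes with a value.

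Total counts per library ran from 14632089 to 43885898, so counting error was small for 7 of the 8 genes. All 16 markers of choroid epithelium on the list used, such as Ttr, were detected in every group, and their summed level ran from 28827 to 49528 CPM (a gene's count scaled to the library total) over the 28 libraries. Markers of brain tissue were also present: the summed level of 12 neuron markers ran from 28.2 to 1749 CPM and that of 8 oligodendrocyte markers from 119 to 6077 CPM. The neural score, the mean log2 CPM of neuron, oligodendrocyte and astrocyte markers, had its highest group median in aged wild-type night mice (libraries at 4.25 to 6.88), and J20+ day library 1 (5.82) and J20+ night library 2 (5.09) lay above the others of their groups. Mouse App does not check the genotype labels, since the transgene is human: its difference between J20+ and wild-type mice was -0.10 ± 0.34 on the log2 scale (SE) at day and 0.57 ± 0.34 at night (adjusted p = 0.989 and 0.255 in edgeR's quasi-likelihood test). In bulk tissue, fewer cells of a type and less RNA per cell cannot be told apart.

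Levels are given as CPM, and between genes only as CPM per kilobase of exon. In young day libraries Htr2c stood highest at 533 CPM per kb, followed by Prlr (367), Lepr (72.8), Ghr (32.4), Insr (18.1), Trpv4 (12.8) and Igf1r (11.9). In aged wild-type day libraries the order was Htr2c (286 CPM per kb), Trpv4 (150.1), Prlr (129), Lepr (33.1), Igf1r (18.3), Ghr (15.5) and Insr (13.7). Esr1 lay at 0.038 CPM per kb in young day and 0.030 in aged wild-type day libraries. The serotonin receptor gene thus led at both ages, and Trpv4 stood sixth in one table and at the second place in the other. These rankings rest on exon lengths of GENCODE transcripts, and reads of lncRNA genes that overlap Prlr, Ghr and Igf1r, and of small RNA genes inside Htr2c, cannot be told apart from theirs because the strand setting of the counting is not given.

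**Figure D1:**
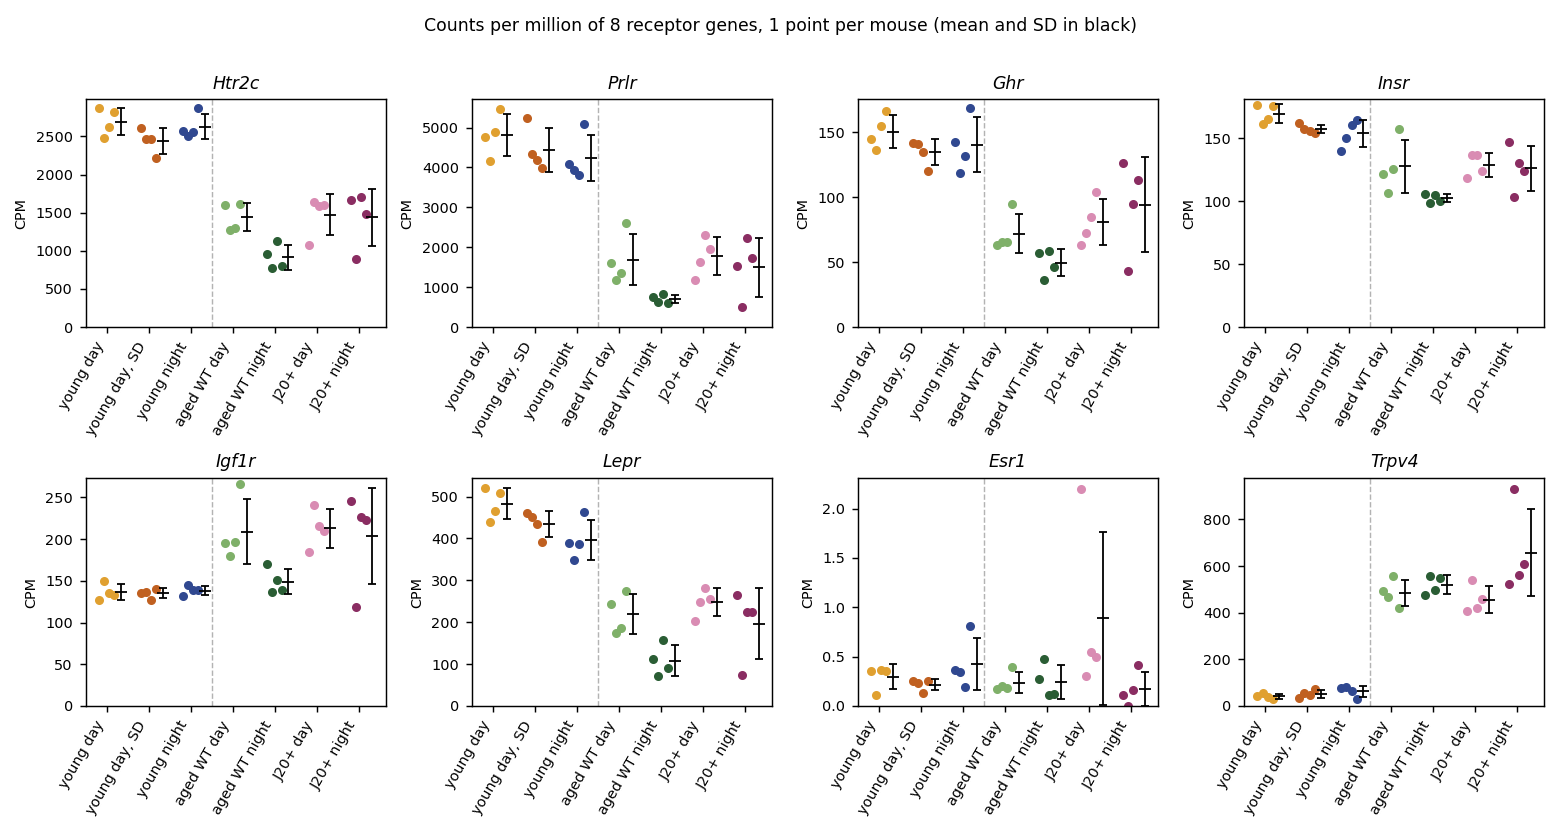
CPM of the 8 genes in each library, by group, with group mean and SD in black (n = 4 mice per group); the dashed line separates the young table (batch 1) from the aged table (batch 2). Htr2c, Prlr and Lepr sit lower and Trpv4 higher in all 16 aged libraries than in the 12 young ones, among aged groups the wild-type night mean is lowest for Htr2c, Prlr, Ghr, Lepr, Insr and Igf1r, and Esr1 reaches 2.196 CPM at most.

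Esr1 was too low to judge. Its group means ran from 0.172 CPM in J20+ night to 0.887 CPM in J20+ day libraries, its counts from 0 to 51 per library, and it passed the filter on low counts in neither table. The highest single value, 2.196 CPM (51 counts), was in J20+ day library 1, which is also high in neural markers. In J20+ night library 2 no read was counted, which allows up to 0.193 CPM (3 counts of the total, counting error only). None of the differences given here is a test of Esr1. The other 7 genes were tested in both tables, with mean counts per group from 815 (Ghr, aged wild-type night) to 124648 (Prlr, young day).

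In young mice night was compared with day. The labels call the night mice awake and the day mice sleep, so time of day and sleep state cannot be told apart here. None of the 7 receptor genes was called at an adjusted p under 0.05, where 0.267% of the 14983 tested genes were (40 genes; edgeR's quasi-likelihood test with Benjamini-Hochberg adjustment). Lepr had 520, 440, 464 and 509 CPM at day and 389, 348, 387 and 463 CPM at night. All but 1 of the night libraries lay below every day library, so the groups overlapped through night library 4 alone. The fitted difference was -0.33 ± 0.13 on the log2 scale (SE; adjusted p = 0.472). It was the only one of the 7 genes under 0.05 before adjustment, which 9.39% of all genes were. Trpv4 had 42.2, 54.4, 37.6 and 31.7 CPM at day and 77.0, 82.2, 64.4 and 30.01 CPM at night. Night library 4 was the lowest of all 8 and the other night libraries the highest 3, with a fitted difference of 0.56 ± 0.27 (adjusted p = 0.546). Night library 4 also had the lowest GC trend of the 12 young libraries, a measure defined with the library measures further on.

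The remaining genes differed less between young night and day. Htr2c had 2868, 2477, 2619 and 2816 CPM at day and 2568, 2507, 2565 and 2879 CPM at night, and the groups overlapped throughout (-0.08 ± 0.11, 95% interval -0.32 to 0.16). Prlr ran from 4167 to 5456 CPM at day and from 3812 to 5098 CPM at night (-0.23 ± 0.16). Insr differed by -0.18 ± 0.09, Ghr by -0.14 ± 0.15 and Igf1r by -0.02 ± 0.07. Igf1r had the narrowest interval, -0.17 to 0.13. Over the 7 genes the median difference was -0.14, beside 0.02 over all genes tested. Limma-voom, run here and below with quality weights, called Trpv4 higher and Prlr, Lepr and Insr lower at night. It called 11% of all genes higher and 7.72% lower. DESeq2 called none of the 7, and 1.87% of all genes.

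Sleep disruption at ZT 6 was compared with undisturbed day. No member and no gene was called (0%), and 2.4% of genes, but none of the members, had an unadjusted p under 0.05. DESeq2 and limma-voom also called no gene. In 6 of 7 members the fitted difference was below 0, from -0.07 ± 0.07 (Igf1r) to -0.23 ± 0.15 (Ghr), and Trpv4 lay at 0.29 ± 0.27. Htr2c had 2611, 2464, 2470 and 2215 CPM after sleep disruption, overlapping the day group (-0.21 ± 0.11, adjusted p = 0.861). Prlr ran from 3987 to 5239 CPM, overlapping the undisturbed mice. Between young night and sleep disruption no member was called, against 0.38% of all genes, none was under 0.05 before adjustment, against 9.7%, and the differences ran from -0.11 ± 0.13 (Lepr) to 0.27 ± 0.27 (Trpv4). Both comparisons with sleep-disrupted or undisturbed mice share libraries with the night comparison, so the values are not independent of each other.

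In aged wild-type mice night was compared with day. Of the 7 tested genes, Htr2c, Prlr, Ghr, Lepr, Insr and Igf1r were lower in every night library than in every day library, and Trpv4 overlapped, as did the untested Esr1. Prlr had 1602, 1181, 1358 and 2611 CPM at day and 759, 619, 831 and 604 CPM at night. Lepr had 244, 175, 185 and 274 CPM at day and 113, 71.2, 157 and 90.1 CPM at night. Htr2c had 1599, 1274, 1299 and 1617 CPM at day and 960.0, 776, 1130.4 and 802 CPM at night. None of these 3 pairs of groups overlapped. Night library 3 was the highest of its group for each of these genes, and it had the lowest neural score of the night libraries.

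Ghr, Insr and Igf1r showed the same separation with smaller distances. Ghr had 63.0, 65.2, 65.6 and 94.4 CPM at day and 57.0, 35.9, 58.7 and 46.4 CPM at night. Igf1r had 195, 179, 196 and 266 CPM at day and 169.8, 137, 151 and 139 CPM at night. Insr had 122, 107, 125 and 157 CPM at day and 105, 98.9, 105 and 100.4 CPM at night, a gap of under 2 CPM between the nearest libraries. Trpv4 had 494, 469, 556 and 421 CPM at day and 476, 559, 496 and 548 CPM at night, with no separation. Ranges that do not overlap and are lower at night were found for 10.1% of the 16065 tested genes.

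The fitted differences between aged wild-type night and day were -1.48 ± 0.45 for Prlr, -1.22 ± 0.39 for Lepr, -0.85 ± 0.29 for Htr2c, -0.74 ± 0.35 for Ghr, -0.69 ± 0.27 for Igf1r, -0.52 ± 0.19 for Insr and -0.09 ± 0.15 for Trpv4. For Prlr this is 2.78-fold lower at night, with a 95% interval of the log2 difference from -2.44 to -0.52. None was called: the adjusted p-values of the 6 lower genes ran from 0.144 to 0.161 in edgeR's quasi-likelihood test, and 0.0124% of all genes were called. Of the 7 genes, 5 had an unadjusted p under 0.05, as did 31.1% of all genes. The median over the 7 genes was -0.74, beside 0.03 over all genes. The call depended on the model: a fit on these 2 groups alone called the 6 members lower, and 12.6% of all genes with them. DESeq2 called Prlr, Lepr and Htr2c lower (4.79% of all genes), limma-voom all 6 (24%), and a fit without the 2 J20+ libraries high in neural markers all 6 (21.5%). That fit kept wild-type libraries with neural scores above that of the omitted J20+ night library 2 (5.09). They were wild-type day library 3 (5.11) and night libraries 1, 2 and 4 (6.88, 6.56 and 6.10).

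**Figure D2:**
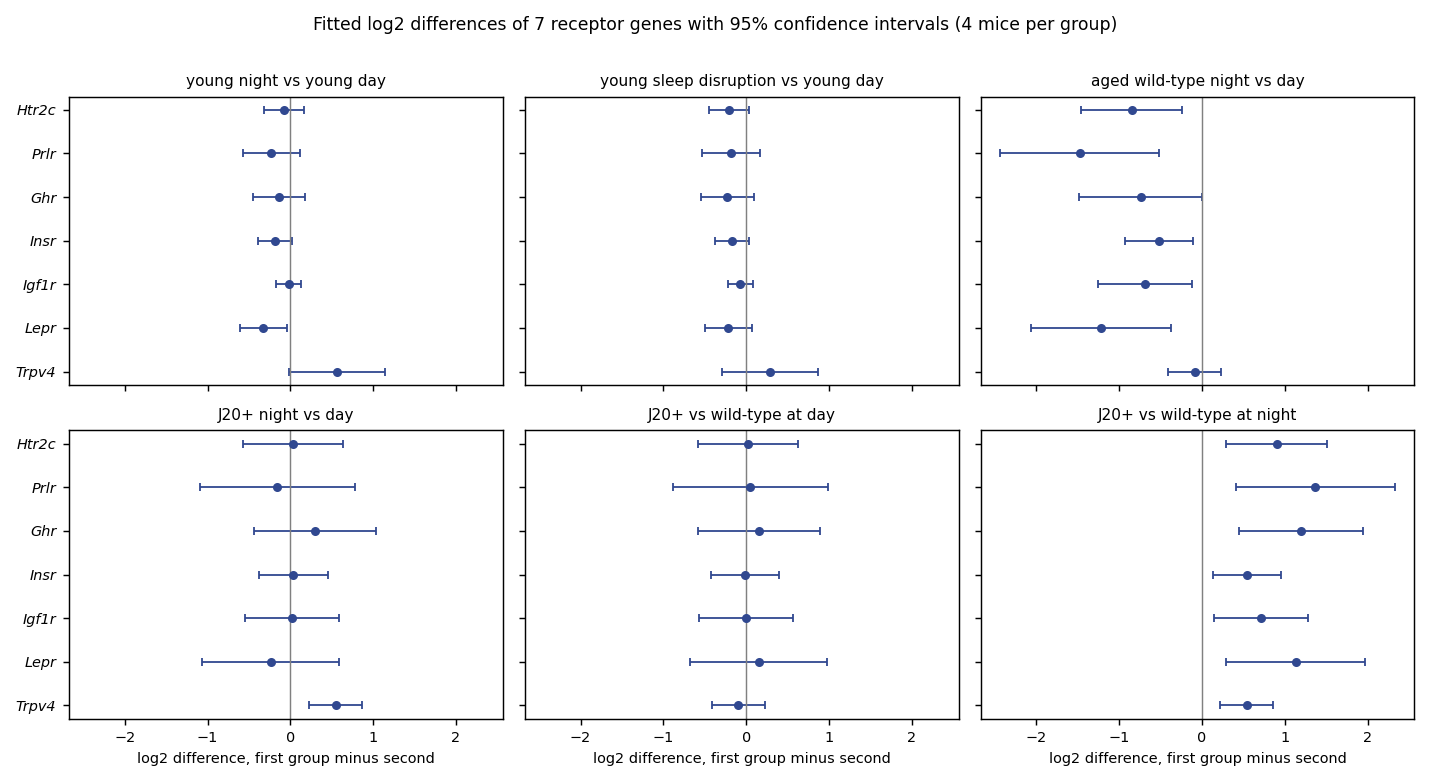
Fitted log2 differences (first group minus second) of the 7 tested genes with 95% confidence intervals in 6 comparisons, 4 mice per group. In young mice all intervals but that of Lepr at night reach 0, the aged wild-type night against day panel lies left of 0 for all but Trpv4 and Ghr's upper end, and the J20+ against wild-type night panel lies right of 0 for all 7.

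Tissue markers moved with this aged wild-type contrast. The summed level of the 16 epithelium markers had a median of 34790 CPM at night and 48180 CPM at day, and 13 of the 16 had a lower mean at night, 8 of them with ranges apart. Ttr, the transthyretin gene and a classic one among them, had a higher mean at night (11043 ± 389 CPM, SD) than at day (9968 ± 1528). The neural score had a median of 6.33 at night and 3.25 at day, and all 12 neuron and all 8 oligodendrocyte markers had a higher mean at night. With the epithelium score as a covariate, the fitted difference was -0.05 for Htr2c, -0.15 for Prlr and -0.11 for Lepr, and 0.26 for Ghr. With the neural score as a covariate it was -0.33 for Htr2c, -0.52 for Prlr and -0.56 for Lepr. The epithelium score is itself built from genes that differ between these groups. The part of tissue makeup in the difference was not tested.

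Relative to the epithelium markers, the genes differed from each other. Counts per 1000 epithelium marker counts were 30.1 ± 3.14 for Htr2c at aged wild-type day and 26.5 ± 2.26 at night (SD, n = 4 each), with overlapping ranges. For Igf1r they were 4.35 ± 0.76 and 4.33 ± 0.32, for Ghr 1.5004 ± 0.30 and 1.43 ± 0.19, and for Insr 2.66 ± 0.43 and 3.00 ± 0.35. Prlr stayed apart, with 24.8 to 53.6 at day and 19.3 to 21.6 at night. Lepr had 3.66 to 5.62 at day and 2.29 to 4.09 at night, which overlap. Trpv4 went the other way, with 8.64 to 12.1 at day and 12.1 to 18.6 at night; its highest day library (12.08) lay just below its lowest night library (12.10). These ratios are a description, with no test, and they inherit the spread of the markers. The marker sum they are divided by was itself lower at night, and the CPM of Trpv4 overlapped between day and night. The share of all genes with ranges apart on this ratio was not computed.

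**Figure D3:**
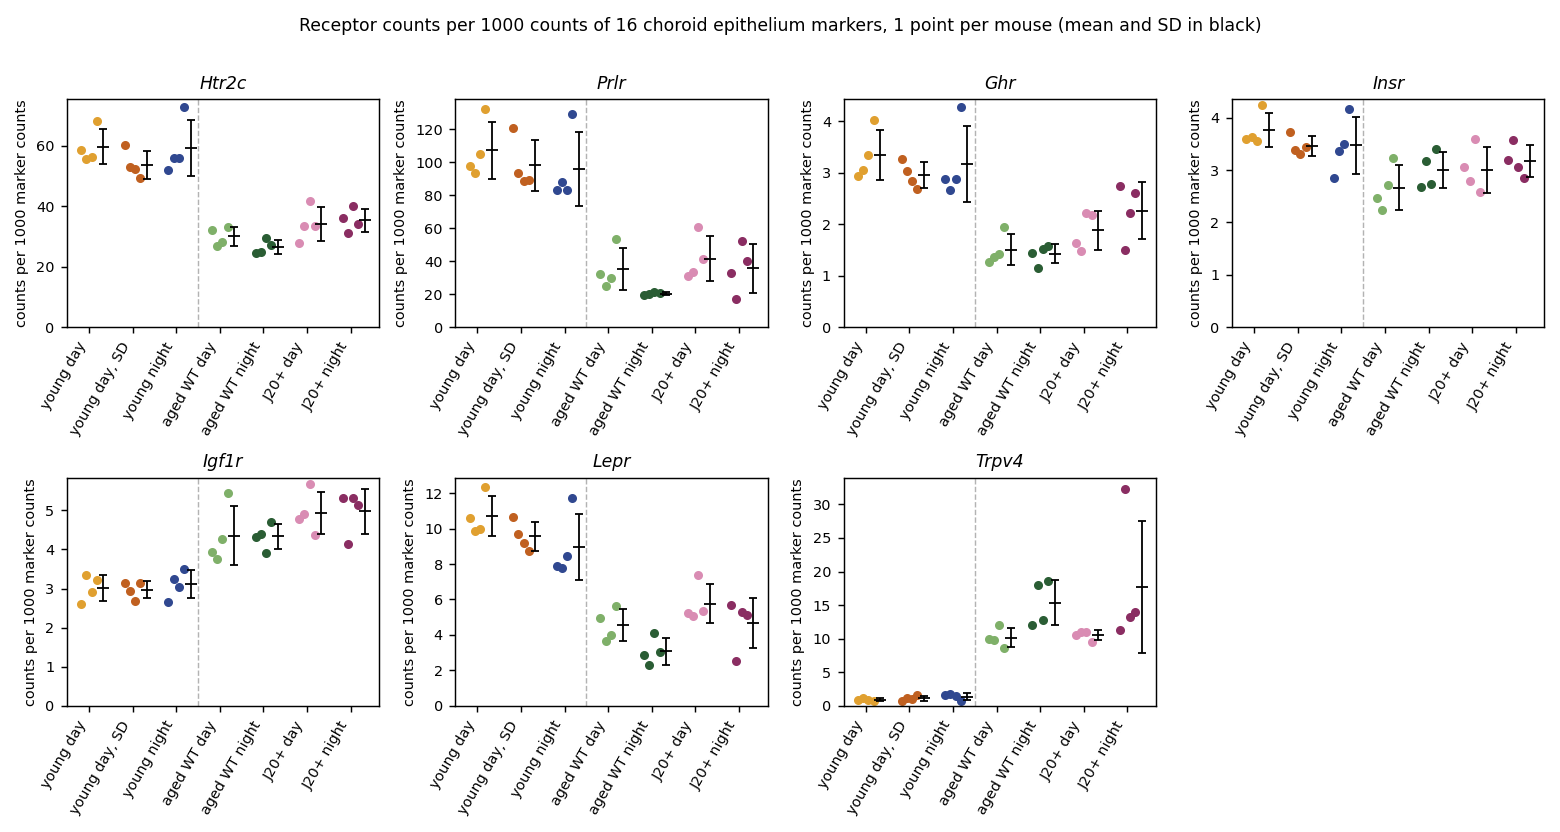
Counts of 7 receptor genes per 1000 counts of the 16 choroid epithelium markers in each library, by group, with mean and SD in black (n = 4 mice per group). Between aged wild-type day and night the points of Htr2c, Ghr, Insr and Igf1r overlap, those of Prlr are lower at night and those of Trpv4 higher, while J20+ night library 2 stands far above all others for Trpv4 at 32.3.

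J20+ mice were compared by time of day. No receptor was called, and 0.0436% of genes were. Trpv4 had 407, 539, 422 and 457 CPM at day and 524, 931, 562 and 610 CPM at night. Only day library 2 reached into the night range, and night library 2 stood far above the rest. The difference was 0.55 ± 0.15 (adjusted p = 0.520 in edgeR's quasi-likelihood test). Of the members only Trpv4 had an unadjusted p under 0.05 in that test, as did 7.41% of all genes. DESeq2 and limma-voom each called Trpv4 higher at night, along with 0.257% and 0.722% of all genes. Without J20+ day library 1 and J20+ night library 2 the difference was 0.33 and was not called. For Prlr the J20+ night libraries had 1521, 495, 2232 and 1731 CPM and the day libraries 1188, 1633, 2315 and 1965 CPM. Night library 2 was lowest and the others overlapped the day group (-0.16 ± 0.44). Htr2c (0.03 ± 0.28), Insr (0.04 ± 0.19), Igf1r (0.02 ± 0.26), Ghr (0.30 ± 0.34) and Lepr (-0.24 ± 0.39) also overlapped.

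At day, J20+ and wild-type littermates differed by 0.16 ± 0.34 for Ghr, 0.15 ± 0.39 for Lepr, 0.05 ± 0.44 for Prlr, 0.02 ± 0.28 for Htr2c, -0.00026 ± 0.26 for Igf1r, -0.01 ± 0.19 for Insr and -0.10 ± 0.15 for Trpv4. No gene at all was called (0%), and 1.87% of genes but no member had an unadjusted p under 0.05. The interval for Htr2c ran from -0.59 to 0.62 and that for Prlr from -0.89 to 0.99, so differences of up to about these sizes could not be seen. DESeq2 called no gene, and limma-voom called 14.8% of all genes but no member. Htr2c had 1082, 1638, 1590.0 and 1596 CPM in J20+ day libraries, and library 1, the one high in neural markers, was the lowest.

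At night all 7 genes had a higher mean in J20+ than in wild-type mice. Ghr had 126, 43.4, 94.7 and 113 CPM in J20+ mice, against 35.9 to 58.7 CPM in the wild-type group. Htr2c had 1669, 894, 1711 and 1479.8 CPM, against 776 to 1130.4 CPM. Lepr had 264, 73.6, 225 and 224 CPM, against 71.2 to 157 CPM. In each case 3 J20+ libraries lay above every wild-type library and library 2 lay within the wild-type range. The same library was lowest for Prlr (495 CPM), Igf1r (119 CPM) and Insr (103 CPM), and highest for Trpv4 (931 CPM). In J20+ night libraries 1, 3 and 4 Trpv4 had 524, 562 and 610 CPM, overlapping the wild-type range of 476 to 559 CPM. The wild-type night libraries here are those of the wild-type night against day comparison, so the 2 comparisons are not independent.

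The fitted differences at night were 1.37 ± 0.45 for Prlr, 1.19 ± 0.35 for Ghr, 1.13 ± 0.39 for Lepr, 0.90 ± 0.29 for Htr2c, 0.71 ± 0.27 for Igf1r, 0.54 ± 0.19 for Insr and 0.54 ± 0.15 for Trpv4. These fits scale the libraries by TMM factors, which the printed CPM does not hold. The factors were 1.04 to 1.15 in wild-type night and 0.87 to 0.91 in J20+ night libraries 1, 3 and 4 (1.14 in library 2). The fitted differences are therefore larger than those between the CPM means. None of the 7 genes was called, with adjusted p-values from 0.0917 to 0.103, and 0.00622% of genes were called. All 7 had an unadjusted p under 0.05, as did 31.9% of all genes, and the median was 0.90 beside -0.01 over all genes. Without J20+ night library 2 all 7 were called higher, with adjusted p-values from 0.0017 to 0.0152 and differences from 0.45 (Trpv4) to 1.69 (Prlr). In that fit the remaining CPM values of Trpv4 still overlapped those of wild-type night. That fit called 57.7% of all genes in either direction and 29.6% higher. Without J20+ day library 1 as well, all 7 were called, and 31.2% of all genes higher. Both of these fits kept every wild-type library, whatever its neural score. DESeq2 and limma-voom also called all 7, with 12.9% and 36% of all genes higher. A fit on the 2 groups alone called no member and no gene at all (0%). Library 2 had an epithelium score of 9.41, below the other J20+ night libraries (10.57 to 10.59), and a neural score of 5.09. With the epithelium score as a covariate the differences were between 0.03 (Igf1r) and 0.57 (Trpv4), and none was called.

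Whether the day-night difference differed between genotypes was tested by an interaction term. It was above 0 for all 7 genes, from 0.56 ± 0.27 for Insr to 1.32 ± 0.62 for Prlr. No gene was called (0%), with adjusted p-values of the members from 0.359 to 0.449. Before adjustment Htr2c and Trpv4, 2 of 7, were under 0.05, and so were 12.4% of all genes. Limma-voom called all 7 above 0, with 18.2% of all genes. DESeq2 called none of the 7, and 0.0565% of all genes in either direction. Without J20+ night library 2, Htr2c, Prlr, Ghr, Insr, Igf1r and Lepr were called, with adjusted p-values from 0.0422 to 0.0454, where 11.2% of all genes were called above 0. Trpv4 was not (0.0538). With the epithelium score as a covariate the interaction was 0.10 for Htr2c, 0.0012 for Ghr, -0.11 for Prlr and 0.66 for Trpv4. With the neural score it was 0.25 for Htr2c, 0.12 for Prlr, 0.13 for Lepr and 0.63 for Trpv4, and no member was called with either score. Without both J20+ libraries that are high in neural markers no member and no gene at all (0%) was called. The adjusted p-values of the members in that fit ran from 0.0708 to 0.0867.

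Across the 16 aged libraries the levels of most members followed measures of the library. The epithelium score is the mean log2 CPM of the 16 markers. In it and in the neural score CPM holds the TMM factors, while the members' log2 CPM in these relations does not. The GC trend is how much the log2 level of genes in a library, against the mean of the table, changes per 10 points of transcript GC. Htr2c followed the epithelium score with a Pearson r of 0.970 and a Spearman rho of 0.871 (permutation p = 1e-05, the smallest that 100000 draws can give; for rho p = 2e-05; adjusted p = 4.67e-05 over 42 relations). Without the 2 libraries farthest from the median score r was 0.961. Prlr followed the GC trend with an r of -0.959 and a rho of -0.906 (permutation p = 1e-05 for each, adjusted p = 4.67e-05), and -0.936 without the 2 farthest libraries. In the aged table the r with the GC trend lay between -0.844 (Insr) and -0.959 for 6 members. Trpv4 had 0.560 (rho = 0.344, permutation p = 0.0211 and 0.192, adjusted p of r 0.0341), which became 0.160 without the 2 farthest libraries and so rests on them. With the neural score the r of the other 6 members lay between -0.650 (Insr) and -0.810 (Htr2c), with adjusted permutation p-values up to 0.0138. That of Trpv4 was 0.199. Groups differ in these measures too, and the measures are built from the same libraries as the levels.

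In the 12 young libraries, which hold little neural signal, no member's relation with the epithelium score passed the adjusted threshold (r from -0.357 to 0.461). With the neural score only that of Trpv4 did, with an r of -0.708 and a rho of -0.685 (permutation p = 0.0103 and 0.017, adjusted p of r 0.0173). Without the 2 farthest libraries this r was -0.501. The GC trend moved with most members. Trpv4 followed it with an r of 0.960 and a rho of 0.958 (permutation p = 1e-05 and 2e-05, adjusted p = 4.67e-05, 0.957 without the 2 farthest libraries). Prlr went the opposite way, with an r of -0.938 and a rho of -0.895 (permutation p = 2e-05 and 0.00019, adjusted p = 7.64e-05, -0.936 without the 2 farthest). Young night library 4, which was highest of its group for Prlr and lowest for Trpv4, had a trend of -0.441, and the other night libraries 0.154 to 0.286. With a correction for GC content, chosen after seeing the data, the young night difference was 0.29 for Trpv4, -0.25 for Lepr and -0.12 for Prlr, and none was called. In aged mice the same correction left the wild-type night difference at -1.42 for Prlr and -0.82 for Htr2c and moved that of Trpv4 to -0.64.

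**Figure D4:**
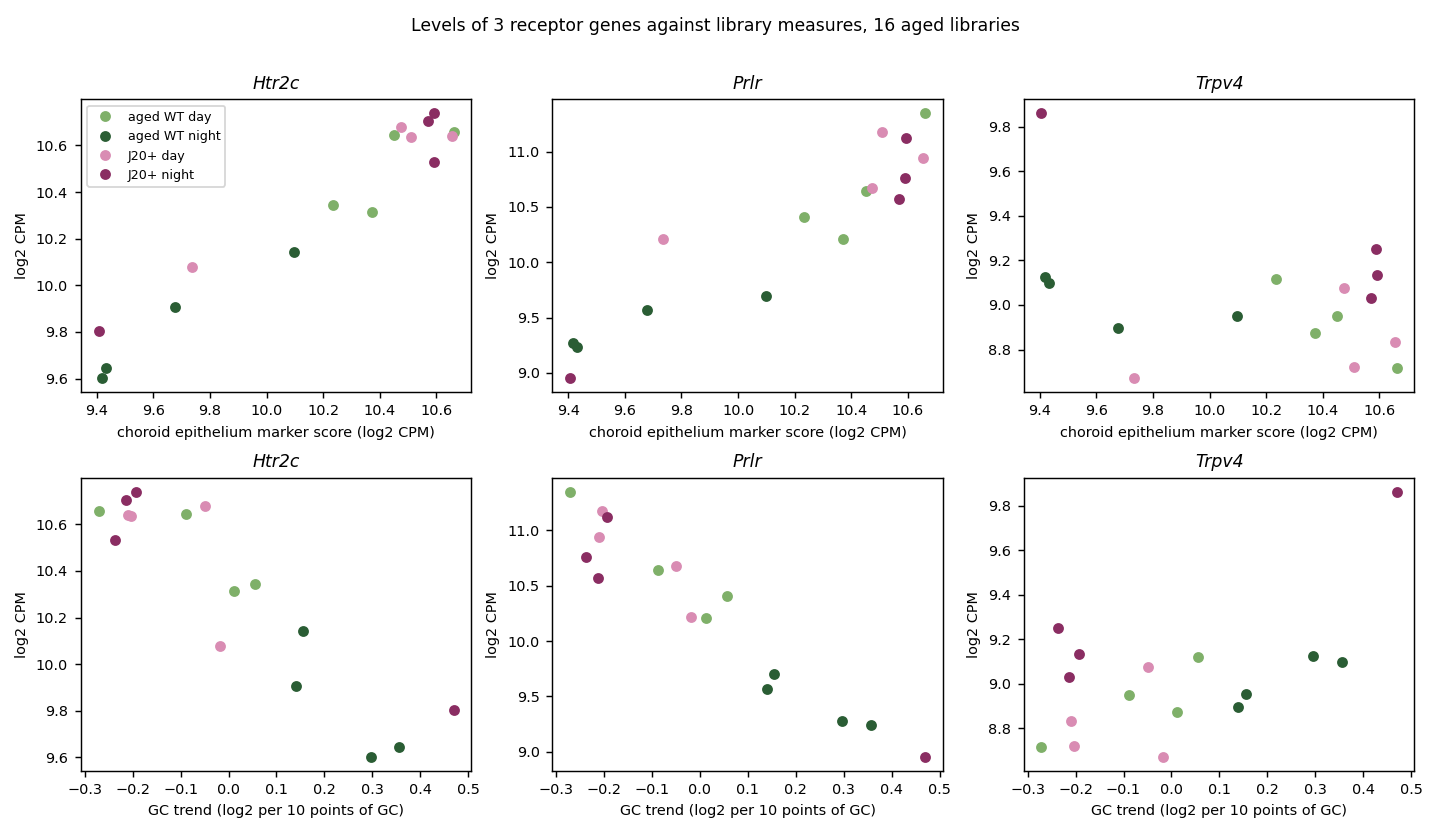
Log2 CPM of Htr2c, Prlr and Trpv4 in the 16 aged libraries against the choroid epithelium marker score (top) and the GC trend (bottom), coloured by group. Htr2c and Prlr climb with the score and drop with the trend, and aged wild-type night libraries and J20+ night library 2 lie at the low end for both genes. For Htr2c, J20+ day library 1 lies among them. Trpv4 shows 1 library far above the rest.

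Levels in the aged table were set beside those in the young table without a test, since age, batch and counting table differ together. Trpv4 had 42.2, 54.4, 37.6 and 31.7 CPM in young day and 494, 469, 556 and 421 CPM in aged wild-type day libraries, 11.7-fold higher, and 2.02% of the 12765 genes with at least 1 CPM in both groups had a ratio as high or higher. Prlr was 2.86-fold lower in the aged group (4820 ± 528 and 1688 ± 639 CPM, SD, n = 4 each), and 2.73% of genes had a ratio as low or lower. Lepr was 2.202-fold, Ghr 2.09-fold, Htr2c 1.86-fold and Insr 1.33-fold lower, and Igf1r 1.53-fold higher. All 7 genes had ranges that did not overlap between aged wild-type day and young day mice, and so did 70.6% of those 12765 genes, 39.5% higher and 31.1% lower. The separation itself therefore sets none of them apart. Among these 7 genes Trpv4 and Igf1r had the highest transcript GC (59.0% and 49.4%). Insr followed at 46.8%, and Htr2c, Lepr, Ghr and Prlr lay at 42.1%, 41.6%, 40.9% and 39.4%. The part of GC content in these ratios was not tested. Over all libraries of the tables, the ranges of Ghr, Insr and Igf1r overlapped. Trpv4 remained the member with the largest ratio relative to the epithelium markers, at 0.915 ± 0.208 per 1000 marker counts in young day and 10.1 ± 1.43 in aged wild-type day libraries.

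Across the 7 groups the highest mean of Htr2c, 2695 CPM, was in young day and the lowest, 917 CPM, in aged wild-type night. Ranges overlapped among the 3 young groups (means 2440.0 to 2695 CPM) and among J20+ day (1477), aged wild-type day (1447) and J20+ night (1438). Prlr, Lepr and Insr had the same highest and lowest group, and so did Ghr. Igf1r was highest in J20+ day (213 ± 23.1 CPM), close to aged wild-type day (209 ± 38.5) and J20+ night (203 ± 57.2), and the 3 young means and aged wild-type night lay between 135 and 149 CPM. Trpv4 was highest in J20+ night (657 ± 186) and lowest in young day (41.5 ± 9.64). The coefficient of variation over the 4 mice was smallest for Insr in sleep-disrupted young mice (2.15%) and largest, among the 7 genes, for Prlr in J20+ night mice (48.9%).

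The wider signalling context was read from 8 lists of 213 genes. Of the 13 other serotonin receptor and transporter genes, 3 passed the filter in young and 7 in aged tissue, and the highest library value of any of them was 4.85 CPM (Htr7). In edgeR's quasi-likelihood test, which called between 0% and 0.38% of all genes, no gene of any list was called in any of the 8 comparisons: none of 17 genes of Gq, phospholipase C and calcium release, none of 17 young or 19 aged tested JAK-STAT genes, and none of 32 or 33 tested insulin and IGF pathway genes. The same held for 21 or 22 nuclear hormone receptors, 10 estrogen receptor coregulators and targets, 15 or 19 TRP and calcium-activated channels, and 45 or 55 other hormone and neuromodulator receptors. Between aged wild-type night and day the median difference was -0.17 for the JAK-STAT list and -0.26 for the insulin and IGF list, and 0.25 for the Gq list and 0.73 for other receptors, beside 0.03 for all genes.

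The genes with the smallest p in their lists show the sizes involved. Igf2r, the receptor that clears IGF2, differed by -1.42 ± 0.40 between aged wild-type night and day (adjusted p = 0.144). Piezo1, a mechanosensitive channel, differed by -1.47 ± 0.36 (adjusted p = 0.144). Prkcb, a protein kinase C isoform abundant in neurons, differed by 1.89 ± 0.59 (adjusted p = 0.144), and Ramp3, a partner of calcitonin-type receptors, by 2.30 ± 0.55 (adjusted p = 0.144). Between J20+ and wild-type night, Stat5b, a transcription factor downstream of the prolactin and growth hormone receptors, differed by 0.41 ± 0.10 (adjusted p = 0.0917) and Grb10, an adaptor that restrains insulin receptor signalling, by 0.62 ± 0.16 (adjusted p = 0.0917). In young night against day, Adarb1, which encodes an enzyme that edits Htr2c transcripts, differed by 0.26 ± 0.08 (adjusted p = 0.235). Adra1a, an adrenergic receptor, differed by 1.87 ± 0.48 (adjusted p = 0.186). Its mean log2 CPM in the young libraries was only -1.25, so this difference rests on few counts.

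Likeness to each member was measured by the lower of 2 Pearson correlations of log2 CPM, over the 12 young and over the 16 aged libraries, among 11111 other genes with a symbol. For Lepr the nearest was Slc12a2 (0.973), which encodes the sodium-potassium-chloride cotransporter NKCC1, followed by Mdfic (0.973) and Hnmt (0.957), which encodes an enzyme that inactivates histamine. For Htr2c they were Elovl7 (0.965), Mtdh (0.962) and Sec63 (0.953). For Prlr they were D3Ertd751e (0.9749), Slmap (0.973) and Yipf6 (0.973), and for Ghr Mpp5 (0.957), Rpgrip1l (0.956) and Pkn2 (0.955). Insr was nearest to Nup155 (0.951), Lats1 (0.948) and Braf (0.944). Igf1r reached lower values, with Prrc1 (0.860), Zbtb7a (0.838) and Tirap (0.833), and Trpv4 was nearest to Myo7a (0.902), Nit1 (0.890) and Nup188 (0.847). These are descriptions over libraries that share depth, tissue makeup and GC trend.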

How the data were processed

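The authors deposited raw read counts per Entrez gene, without normalization, in a table of 12 young and a table of 16 aged libraries. The submitters' processing notes name the build mm10 and the tools featureCounts 2.0.1, HISAT2 2.2.1, DESeq2, Picard 2.18.2, FastQC 0.11.8 and cutadapt. Annotation and strand setting: not given in the sources used here. Per the labels' protocols, libraries were stranded and poly(A)-selected. Symbols came from RefSeq (GRCm38.p6), which matched 25275 of 27179 identifiers. The members and lists were chosen with earlier results of these data known. CPM is a gene's count divided by the library's total. It does not hold the TMM factors of the fits, so fitted differences can depart from it in size or sign. The marker scores and the likeness correlations used log2 CPM that does hold TMM factors. Each table was fitted with edgeR 4.0.16 (filterByExpr by group, TMM, robust quasi-likelihood, 1 coefficient per group; R 4.3.3). SE is the log2 difference divided by the square root of F, and Benjamini-Hochberg adjustment covered every tested gene, with a threshold of 0.05. A member was too low to judge where it did not pass the filter. Steps were tested on simulated data. The 8 members are named in every comparison, with the gene of smallest p in each list where none was called, of which a selection is printed, and the 3 genes most like each member. Alternatives were RLE, upper-quartile and no scaling, DESeq2 1.42.0, limma-voom (limma 3.58.1), other filters, marker scores as covariates, fits on only the 2 groups in question, and omission of each library in turn; GC correction and leaving out 2 J20+ libraries were added after seeing the data. The lists hold 8 pathways and 10 cell types. The groups come from 1 library per mouse, so p-values of the group comparisons measure the spread between mice. Those of the 42 relations with library measures permuted all libraries of a table without regard to group, so differences between groups enter them.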

Additional observations from a re-analysis of the deposited data

Results flagged for a closer look

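Of 56 sets of 4 libraries (8 genes in 7 groups), 6 held a library whose gap to its nearest neighbour exceeded the 95% limit of Dixon's test for 4 samples; chance gives about 1 in 20 sets. Htr2c had 2879 CPM in young night library 4, against 2507 to 2568 CPM in the other 3 mice. It had 1082 CPM in J20+ day library 1, against 1590.0 to 1638 CPM. Ghr had 94.4 CPM in aged wild-type day library 4, against 63.0 to 65.6 CPM. The estrogen receptor gene Esr1, which was too low to judge, had 0.106 CPM in young day library 2 (3 counts), 2.196 CPM in J20+ day library 1 and 0.390 CPM in aged wild-type day library 4. J20+ day library 1 had the highest neural score of its group (5.82), young night library 4 the lowest GC trend of the young table (-0.441) and aged wild-type day library 4 the lowest of the aged table (-0.271). The part of these measures in the values was not tested.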

How the results depend on the processing

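No paired analysis was possible because the labels give no number that links mice of different groups. Over 56 member differences and 1204 alternatives, 1047 kept direction and side of the threshold, 68 passed the threshold and 89 changed sign, none of these past the threshold. Members called moved as follows. Limma-voom called 4 in young night against day, 6 in aged wild-type night against day, 1 in J20+ night against day, 7 in J20+ against wild-type at night and 7 in the interaction. DESeq2 called 3 in aged wild-type night against day, 1 in J20+ night against day and 7 in J20+ against wild-type at night. The 2 compared groups alone gave 6 in aged wild-type night against day, as did leaving out both J20+ libraries high in neural markers, which gave 7 in J20+ against wild-type at night. Leaving out single libraries gave 0 to 7 in J20+ against wild-type at night and 0 to 6 in the interaction. All genes called in aged wild-type night against day numbered 2, but 1390 with DESeq2, 8312 with limma-voom and 4033 with the 2 groups alone; in J20+ against wild-type at night 1, but 3001 and 11588 with the first pair; in young night against day 40, but 257 and 2797. In young night against sleep disruption 57 became 312 and 1105, in J20+ night against day 7 became 79 and 274, and in the interaction 0 became 9 and 5382. In J20+ against wild-type at day limma-voom alone called genes, 2370 of them. Leaving out J20+ night library 2 gave 9414 in J20+ against wild-type at night and 3409 in the interaction. The cause was not tested.

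Sign changes were at most 0.257 in size, in log2, with none called. GC correction put Htr2c at 0.0034 in young night against day, Htr2c at -0.040 in J20+ against wild-type at day. No scaling put Igf1r at 0.023 in young night against day, Trpv4 at 0.10 in aged wild-type night against day, Htr2c at -0.038, Insr at -0.032, Igf1r at -0.065 in J20+ night against day, Insr at 0.013, Igf1r at 0.027 in J20+ against wild-type at day. A filter of 10 CPM in 4 libraries put Igf1r at 0.0054 in young night against day, Trpv4 at 0.0042 in aged wild-type night against day, Htr2c at -0.012, Insr at -0.0047, Igf1r at -0.036 in J20+ night against day. The stromal score put Prlr at 0.040, Insr at 0.0014 in young night against sleep disruption, Htr2c at -0.021, Lepr at -0.0016, Trpv4 at 0.030 in J20+ against wild-type at day. Limma-voom put Ghr at -0.072 in young night against sleep disruption, Insr at 0.20, Igf1r at 0.23 in J20+ against wild-type at day. The epithelium score put Ghr at 0.26, Igf1r at 0.047 in aged wild-type night against day, Igf1r at -0.0074 in J20+ night against day, Insr at 0.039, Igf1r at 0.086 in J20+ against wild-type at day, Prlr at -0.11, Igf1r at -0.054, Lepr at -0.24 in the interaction. Upper-quartile scaling put Trpv4 at 0.025 in aged wild-type night against day, Htr2c at -0.016, Insr at -0.0060, Igf1r at -0.042 in J20+ night against day, Htr2c at -0.015 in J20+ against wild-type at day. The neural score put Htr2c at -0.077, Insr at -0.027, Igf1r at -0.093 in J20+ night against day, Insr at 0.024, Igf1r at 0.059 in J20+ against wild-type at day. The compared groups alone put Htr2c at -0.015, Insr at -0.015, Igf1r at -0.036 in J20+ night against day, Igf1r at 0.013 in J20+ against wild-type at day. RLE put Igf1r at -0.011 in J20+ night against day, Igf1r at 0.0025 in J20+ against wild-type at day. DESeq2 put Igf1r at -0.011 in J20+ night against day, Igf1r at 0.0025 in J20+ against wild-type at day. Leaving out both J20+ libraries put Insr at 0.089, Igf1r at 0.12, Trpv4 at 0.017 in J20+ against wild-type at day. No filter put Igf1r at 0.0078 in J20+ against wild-type at day. Leaving out single libraries gave Igf1r -0.059 to 0.013 in young night against day. It gave Prlr -0.19 to 0.069, Ghr -0.059 to 0.18, Insr -0.086 to 0.030 in young night against sleep disruption. It gave Htr2c -0.15 to 0.26, Prlr -0.48 to 0.16, Insr -0.12 to 0.19, Igf1r -0.15 to 0.26, Lepr -0.47 to 0.068 in J20+ night against day. It gave Htr2c -0.063 to 0.20, Prlr -0.13 to 0.42, Ghr -0.034 to 0.39, Insr -0.088 to 0.17, Igf1r -0.067 to 0.21, Trpv4 -0.17 to 0.019 in J20+ against wild-type at day.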
